A study of Mus musculus with 9 samples.

Results

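Transcripts of 10 genes that act in silencing by TRIM28 and in methylation of histone H3 at lysine 9 (H3K9) were followed in mouse embryonic stem (ES) cells: Trim28, Setdb1, Atf7ip, Zfp57, Zfp809, Ehmt1, Ehmt2, Cbx1, Cbx3 and Cbx5. The genes were chosen by symbol, and each matched 1 of the 52550 gene rows of an exon count table. All 9 libraries came from V6.5, a hybrid mouse ES line grown in Knockout DMEM that held 15% FBS, LIF and the GSK and MEK inhibitors known as 2i. Of these, 4 were labelled wildtype (WT) and 5 KLF2/KLF4 DKO, a label read here as lacking both of these transcription factors. The labels do not say whether the replicates were separate cultures, nor how many clones the DKO libraries stand for, so p-values measure only the spread between these libraries, which may be technical.

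Kruppel-associated box (KRAB) zinc finger proteins such as ZFP57 and ZFP809 recognise retroelements and imprinted control regions by sequence and recruit the corepressor TRIM28, also named KAP1. TRIM28 brings in the methyltransferase SETDB1, which its partner ATF7IP stabilises and which trimethylates H3K9, while the paired enzymes EHMT1 (GLP) and EHMT2 (G9a) add the mono- and dimethyl marks. HP1 proteins, encoded by Cbx1, Cbx3 and Cbx5, bind methylated H3K9. In ES cells this machinery is known for silencing endogenous retroviruses. The table counts annotated genes and holds no row for a repeat family, so transcription of the retroelements themselves was not measured here.

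Library totals ran from 6035642 to 7098530 counts. Klf2 had 3042 to 3297 counts in the WT libraries and 3750 to 4044 in the libraries labelled DKO, and Klf4 had 5085 to 6183 and 9385 to 10778. More reads of both genes in the libraries labelled DKO go against that label. Which part of either gene was deleted is not given in the sources used here, and 3' reads from a part that remains are no check. DKO below stands for the label, and every direction is DKO relative to WT. On the second principal component, which held 6.10% of the variance, DKO 3 stood at 23.1 and DKO 4 and DKO 5 at -13.5 and -14.0. All 8 ES cell markers were detected, 6 higher and 1 lower in the libraries labelled DKO. Over all genes tested, 23.9% were higher and 24.0% lower. Pou5f1 had the fewest reads of these markers, 648 counts in WT, against 8754 for Nanog. The 12 markers of fibroblasts, such as feeder cells, summed to 15.9 to 19.5 CPM, which are counts scaled to a common library size, in WT and 7.39 to 12.5 in DKO. Of these Col5a1 fell, Lum had 0 counts and Dcn 1 count in all, and Col1a1 had 18 counts in WT and 19 in DKO.

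All 10 genes had enough reads to be tested, and 6 fell in the libraries labelled DKO: Setdb1, Cbx1, Cbx3, Ehmt2, Ehmt1 and Trim28. Only Atf7ip rose, and Zfp57, Zfp809 and Cbx5 did not pass. Of 11893 genes tested over the whole table by edgeR's quasi-likelihood test, 24.0% fell, 23.9% rose and 47.8% changed in either direction at an adjusted p under 0.05. The median log2 fold change was -0.15 over the 10 genes and 0.01 over all genes tested. The changes were small, with called falls from -9.67% for Trim28 to -22.6% for Setdb1, and 26.7% of all genes tested changed by 0.5 or more on the log2 scale, more than any of the 10. For 5 of the 10 genes the 2 groups of libraries did not overlap, against 37.4% of genes tested.

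**Figure D1:**
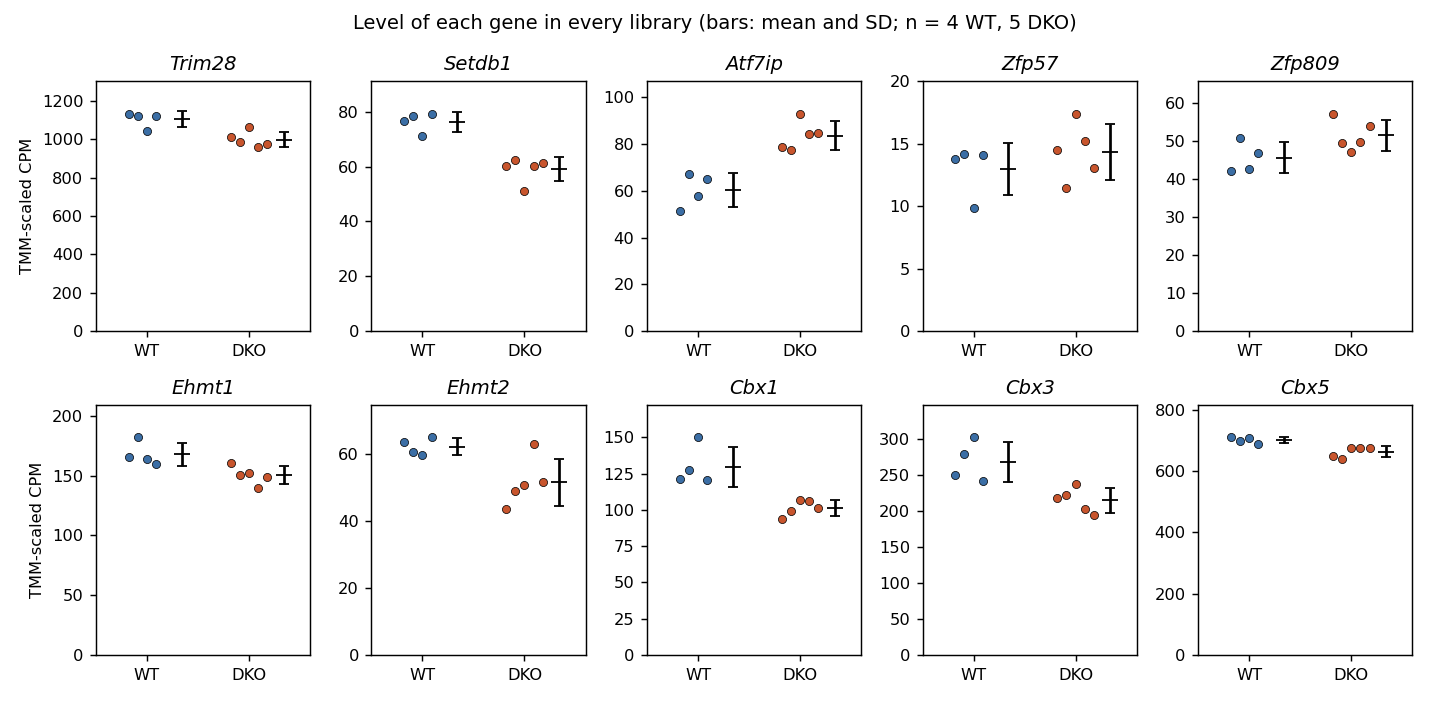
Level of each of the 10 genes in every library, in CPM on TMM-scaled library sizes (vertical axis, from 0 in each panel), for 4 WT and 5 DKO libraries. Points are libraries and bars the mean with its SD. The WT and DKO points are apart for Setdb1, Atf7ip, Cbx1, Cbx3 and Cbx5.

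The start sites of these genes were searched for the CACCC core that KLF proteins bind, because the comparison is named for the loss of 2 KLF factors. Windows from 250 bases before to 50 bases after the start come from RefSeq on GRCm38.p6. All 10 genes had a window, and where a gene had several the one nearest the 5' end of the GENCODE gene was used. That of Trim28 starts 25038 bases and that of Atf7ip 12684 bases inside the GENCODE gene, and the other 8 lie within 256 bases of its end. CACCC or its reverse complement GGGTG was present in 6 of 10 windows and in 57.5% of all 32851 windows. The longer CCNCACCC, which contains CACCC, was present on either strand in 2 of 10, those of Trim28 and Ehmt2, and in 16.6% of all windows. Shown 5' to 3' on the gene's own strand, with CACCC or GGGTG in capitals, are Trim28 and Ehmt2, which hold the longer motif, Setdb1, the largest fall, and Atf7ip, the rise. They were picked after the values were seen.
Trim28, chr7:13023902-13024201, plus strand: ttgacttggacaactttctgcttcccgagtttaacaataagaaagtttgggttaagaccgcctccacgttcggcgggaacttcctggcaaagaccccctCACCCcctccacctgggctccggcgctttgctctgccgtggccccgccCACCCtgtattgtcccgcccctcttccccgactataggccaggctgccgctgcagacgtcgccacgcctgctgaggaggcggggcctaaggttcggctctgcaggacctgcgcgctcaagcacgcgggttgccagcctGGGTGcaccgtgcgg
Ehmt2, chr17:34898224-34898523, plus strand: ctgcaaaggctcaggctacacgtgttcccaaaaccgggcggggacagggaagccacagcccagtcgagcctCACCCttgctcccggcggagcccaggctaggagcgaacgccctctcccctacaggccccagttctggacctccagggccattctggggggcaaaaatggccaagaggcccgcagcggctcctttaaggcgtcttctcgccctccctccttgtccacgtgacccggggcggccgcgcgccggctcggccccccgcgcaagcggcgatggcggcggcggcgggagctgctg
Setdb1, chr3:95357153-95357452, minus strand: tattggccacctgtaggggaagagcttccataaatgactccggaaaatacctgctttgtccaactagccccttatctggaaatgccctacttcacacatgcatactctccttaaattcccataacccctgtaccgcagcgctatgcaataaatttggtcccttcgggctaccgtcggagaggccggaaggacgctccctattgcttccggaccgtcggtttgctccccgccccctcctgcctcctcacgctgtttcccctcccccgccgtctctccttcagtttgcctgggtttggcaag
Atf7ip, chr6:136518601-136518900, plus strand: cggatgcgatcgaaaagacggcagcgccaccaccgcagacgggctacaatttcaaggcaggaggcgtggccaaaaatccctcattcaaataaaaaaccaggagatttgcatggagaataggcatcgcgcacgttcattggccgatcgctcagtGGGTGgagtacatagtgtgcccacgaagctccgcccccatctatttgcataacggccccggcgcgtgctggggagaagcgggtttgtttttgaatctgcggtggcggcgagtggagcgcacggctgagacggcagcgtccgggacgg
Both Trim28 and Ehmt2, with the longer motif, fell. Of the genes with CACCC but not the longer motif, Ehmt1 and Cbx3 fell, Atf7ip rose and Zfp809 did not pass. Of those whose windows hold no CACCC, Setdb1 and Cbx1 fell, and Zfp57 and Cbx5 did not pass. A match is a description of these letters, and binding was not measured here.

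Trim28 had the highest CPM of the 10 genes, and only 0.664% of genes tested had a higher mean level. Reads of this kit come from the 3' ends of transcripts, so CPM levels are compared between genes without a term for length. Rankings between genes are uncertain all the same. In WT, the ES cell marker Pou5f1 stood at 23.9 CPM against 323 for Nanog, and Sumo2 had 17 counts against 26315 for Sumo3. Whether reads of such genes were lost in counting was not tested. Trim28 (ENSMUSG00000005566, chromosome 7, 12999114 to 13031035, plus strand, GRCm38) stood at 1132, 1122, 1040.2 and 1121 CPM in WT 1 to 4 and at 1009, 982, 1062, 958 and 975 CPM in DKO 1 to 5. The groups overlapped, since WT 3 was lower than DKO 3. From 1104 ± 42.8 CPM in WT to 997 ± 40.4 in DKO (SD, n = 4 and 5), the log2 fold change was -0.15 ± 0.04 (SE, edgeR adjusted p = 0.00536). Values after ± on CPM levels are SDs throughout. As in any bulk sample, fewer cells expressing a gene and less RNA per cell cannot be told apart.

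Zfp57 and Zfp809, whose zinc finger proteins direct TRIM28 to DNA, did not pass. Zfp57, whose protein protects imprints (ENSMUSG00000036036, chromosome 17, 37001163 to 37010635, plus strand), had few reads. WT 1 to 4 gave 13.8, 14.2, 9.84 and 14.1 CPM, and DKO 1 to 5 gave 14.5, 11.4, 17.4, 15.2 and 13.0 CPM. The groups overlapped, with WT 3 the lowest library and DKO 3 the highest. Its log2 fold change was 0.14 ± 0.14 (SE, edgeR adjusted p = 0.436), and the interval of 1.96 SE either side reached from -0.14 to 0.42. Zfp809, which recognises the primer binding site of murine leukaemia virus-like elements (ENSMUSG00000057982, chromosome 9, 22225714 to 22243354, plus strand), stood at 42.2, 50.9, 42.8 and 46.9 CPM in WT 1 to 4 and at 57.3, 49.5, 47.3, 49.8 and 54.0 CPM in DKO 1 to 5. All 5 DKO values were above 3 of the WT values, and WT 2 lay among them. On the log2 scale the change was 0.18 ± 0.08 (SE, edgeR adjusted p = 0.0677). It passed when WT 2 or DKO 3 was left out (0.23 with adjusted p = 0.0323, and 0.21 with adjusted p = 0.0330, within a range of 0.0323 to 0.212 over 18 alternative fits).

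Setdb1 and Atf7ip, which encode a methyltransferase and the partner that stabilises it, moved in opposite directions. Setdb1 (ENSMUSG00000015697, chromosome 3, 95323525 to 95357202, minus strand) stood at 76.4, 78.2, 71.3 and 79.2 CPM in WT 1 to 4 and at 60.1, 62.4, 51.2, 60.1 and 61.4 CPM in DKO 1 to 5. Every DKO library was below every WT library, and DKO 3 was the lowest. The log2 fold change was -0.37 ± 0.07 (SE, edgeR adjusted p = 3.59e-05), or -22.6%. The 3' end of Setdb1 meets that of Cers2 on the opposite strand. They share 75 exonic bases, Cers2 had 3148 counts in WT and 3071 in DKO, and the strand setting of the counting is not given in the sources used here, so some Setdb1 reads are uncertain.

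Atf7ip (ENSMUSG00000030213, chromosome 6, 136506167 to 136610862, plus strand) stood at 51.6, 67.4, 57.7 and 64.9 CPM in WT 1 to 4 and at 79.0, 77.4, 93.1, 84.2 and 84.6 CPM in DKO 1 to 5. Every DKO library was above every WT library. Its log2 fold change was 0.47 ± 0.07 (SE, edgeR adjusted p = 3.12e-06), a rise of 38.4%. Atf7ip lies in a part of chromosome 6 where the 40 nearest tested genes had a median log2 fold change of 0.35, with 25 higher and 7 lower. With 40 genes on each side the median was 0.47 (54 higher, 8 lower), and with 10 it was 0.24. Among all genes tested, 23.9% were higher and 24.0% lower. The part of these neighbours in the result was not tested. Shifts of parts of chromosomes 6 and 8 as blocks were known from earlier results of these data. Of the genes called below, Cbx3, Kdm3a, Resf1, Mest, Stk31 and Tuba3a also lie on chromosome 6, and Cdyl2, Gatad2a and Asf1b on chromosome 8. Whether each lies in a shifted part was not tested.

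Of the EHMT pair, whose proteins work as a heterodimer, both genes fell. Ehmt1 (ENSMUSG00000036893, chromosome 2, 24789928 to 24919614, minus strand) stood at 166, 182, 164 and 159 CPM in WT 1 to 4 and at 161, 151, 152, 139.6 and 149 CPM in DKO 1 to 5. DKO 1 lay just above the lowest WT library. On the log2 scale the change was -0.16 ± 0.05 (SE, edgeR adjusted p = 0.0179), and the call was lost without WT 2 (-0.12, adjusted p = 0.0984) or without DKO 4 (-0.13, adjusted p = 0.0637), within a range of 0.00721 to 0.0984 over 18 alternative fits.

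Ehmt2 (ENSMUSG00000013787, chromosome 17, 34898469 to 34914052, plus strand) stood at 63.6, 60.7, 59.5 and 64.9 CPM in WT 1 to 4 and at 43.5, 49.0, 50.6, 62.8 and 51.7 CPM in DKO 1 to 5. DKO 4 lay within the WT range and the other 4 below it. The log2 fold change was -0.27 ± 0.08 (SE, edgeR adjusted p = 0.00527), and -0.35 without DKO 4. Ehmt1 made up 72.9% ± 1.67 of the pair's counts in the 4 WT libraries (SD) and 74.5% ± 3.51 in the 5 DKO libraries. This difference of 1.55 percentage points was within the spread (exact permutation p = 0.444, 2-sided, and 0.444 after Benjamini-Hochberg adjustment over 4 shares).

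Of the HP1 genes, Cbx1 and Cbx3 fell and Cbx5, the highest in CPM, did not pass. Cbx1, which encodes HP1 beta (ENSMUSG00000018666, chromosome 11, 96789127 to 96808640, plus strand), stood at 121, 127, 150.0 and 121 CPM in WT 1 to 4 and at 93.8, 99.0, 107, 106 and 101 CPM in DKO 1 to 5. The groups did not overlap, and WT 3 was the highest. Its log2 fold change was -0.36 ± 0.06 (SE, edgeR adjusted p = 2.12e-05), and -0.28 without WT 3.

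Cbx3, which encodes HP1 gamma (ENSMUSG00000029836, chromosome 6, 51470360 to 51483704, plus strand), stood at 249.8, 279, 302 and 242 CPM in WT 1 to 4 and at 217, 222, 238, 203 and 194 CPM in DKO 1 to 5. The groups did not overlap, with WT 4 just above DKO 3. The log2 fold change was -0.32 ± 0.06 (SE, edgeR adjusted p = 0.000116). Cbx3 has processed copies, and 33.9% of the 50-base words in the last 300 bases of its coding transcripts also occur in transcripts of 16 other annotated genes. These genes together had 19 counts in WT and 12 in DKO, and how reads with several matches were handled is not given in the sources used here, so its level is uncertain.

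Cbx5, which encodes HP1 alpha (ENSMUSG00000009575, chromosome 15, 103191544 to 103239816, minus strand), stood at 710.4, 697, 707 and 688 CPM in WT 1 to 4 and at 651, 639.9, 675, 676 and 676 CPM in DKO 1 to 5. Every DKO library was below every WT library by this measure. The log2 fold change was nevertheless small, -0.08 ± 0.04 (SE, edgeR adjusted p = 0.123), and 1.96 SE either side reached from -0.16 to 0.00.

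The make-up of the HP1 counts differed between the groups. These shares include Cbx3, whose level is uncertain as said above. They also depend on each other and on the levels above: Cbx5 itself did not rise (log2 fold change -0.08), while Cbx1 and Cbx3 fell. Of the counts of the 3 genes, Cbx5 held 65.7%, 63.2%, 61.0% and 65.5% in the WT libraries, by number, and 67.7%, 66.6%, 66.2%, 68.7% and 69.6% in DKO. Its share was higher in every DKO library than in every WT library, by 3.89 percentage points (63.8% ± 2.21 and 67.7% ± 1.41, SD, n = 4 and 5, exact permutation p = 0.00794, 2-sided, the smallest that 126 divisions can give, and 0.0159 after adjustment over 4 shares). The share of Cbx1 was 11.8% ± 0.781 in WT and 10.4% ± 0.379 in DKO and did not overlap either (exact permutation p = 0.00794, 2-sided, adjusted 0.0159). The share of Cbx3 was 24.4% ± 1.54 in WT and 21.9% ± 1.53 in DKO, and this difference did not pass (exact permutation p = 0.0714, 2-sided, adjusted 0.0952). Both calls were lost without WT 3, at 2.94 points for Cbx5 and -1.05 for Cbx1 (exact permutation, adjusted p = 0.0714). The groups did not overlap in either share without WT 3 either. With any 1 DKO library left out, the groups still did not overlap in either share. The exact permutation p of both was then the smallest that 4 against 4 libraries can give, which came to 0.0571 after adjustment over the 4 shares, so with the other 2 shares as they were no call was possible, and these values say nothing about stability.

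**Figure D2:**
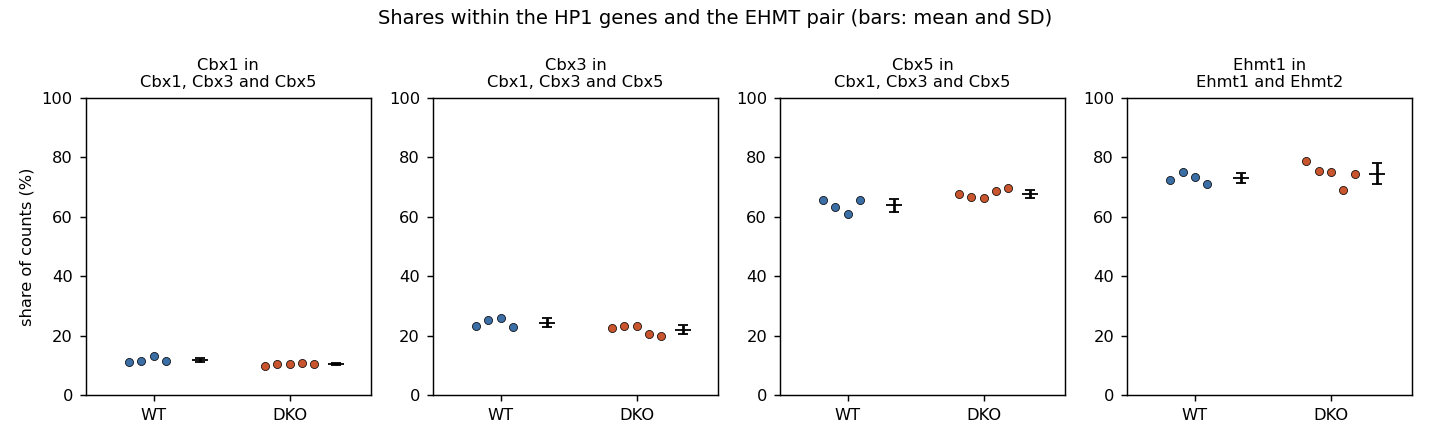
Share of counts in percent (vertical axis) of Cbx1, Cbx3 and Cbx5 among the 3 HP1 genes, and of Ehmt1 among Ehmt1 and Ehmt2, in 4 WT and 5 DKO libraries. Points are libraries and bars the mean with its SD. The share of Cbx5 lies between 61.0% and 65.7% in WT and between 66.2% and 69.6% in DKO.

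Genes near several of the 10 moved in the same direction as the gene itself. The median log2 fold change of the 40 nearest tested genes was -0.21 around Setdb1 (15 lower, 2 higher), -0.21 around Cbx1 (19 lower, 3 higher) and -0.18 around Cbx3 (17 lower, 4 higher). Among all genes tested, 24.0% were lower and 23.9% higher. Around Cbx5, near the end of chromosome 15, 27 neighbours had a median of -0.21, lower than the -0.08 of Cbx5. Around Trim28 the median was 0.16, opposite to the fall of Trim28, while around Ehmt1 it was 0.01 and around Ehmt2 -0.09. Zfp57 and Zfp809 had neighbours near 0, with medians of 0.03 and 0.04. The medians depended on how far the neighbourhood reached. With 40 genes on each side in place of 20 the median near Ehmt1 was 0.12 (31 higher, 11 lower), opposite to the fall of Ehmt1, and near Ehmt2 it was -0.04. It was -0.07 near Setdb1 and -0.13 near Cbx1, and 0.10 near Trim28 with 10 genes on each side. The part of these surroundings in each result was not tested.

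**Figure D3:**
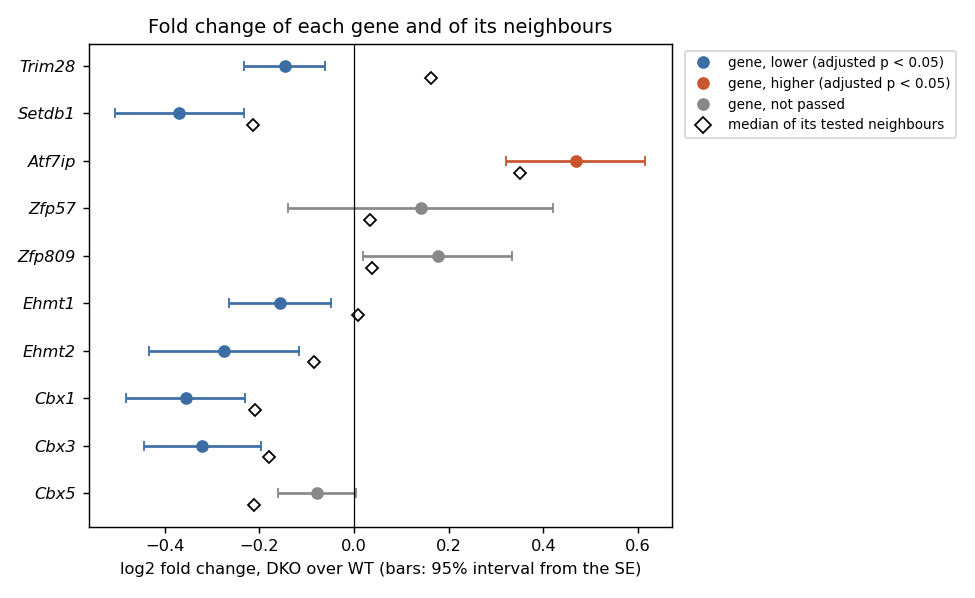
Log2 fold change of each of the 10 genes, DKO over WT (horizontal axis), as circles with bars of 1.96 SE either side, and the median of its nearest tested neighbours on the chromosome (diamonds). Setdb1, Cbx1, Cbx3 and Atf7ip lie on the same side of 0 as their neighbours, and Trim28 (-0.15) on the side opposite to its neighbours (0.16).

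Other genes that write or remove H3K9 methylation went both ways. Of 10 tested methyltransferases and cofactors outside the 10 genes, 3 rose and 2 fell, with a median log2 fold change of 0.03. Suv39h1, which trimethylates H3K9 at pericentric heterochromatin, rose from 5.12 ± 0.516 to 10.6 ± 1.63 CPM (1.05, edgeR adjusted p = 5.29e-06). The chromodomain gene Cdyl rose from 34.2 ± 3.64 to 65.2 ± 5.23 CPM (0.93, edgeR adjusted p = 1.56e-11), while Cdyl2 (-0.31) and Prdm2 (-0.39) fell and Zfp644, a partner of EHMT1 and EHMT2, did not pass (0.02). Of 10 tested H3K9 demethylases 6 rose and 3 fell, with a median of 0.23. Kdm3a, which removes mono- and dimethyl marks, fell from 144 ± 11.4 to 92.8 ± 4.56 CPM (-0.64, edgeR adjusted p = 7.26e-11), whereas Kdm1a (0.22), Phf8 (0.35) and Kdm4a (0.23) rose. These are counts, with no test of either list, and among all genes tested 23.9% rose and 24.0% fell.

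Among partners in silencing, the HUSH complex and MORC genes had 4 falls and 1 rise of 7 tested (median -0.18). For this and the next lists, the shares over all genes tested are 23.9% that rose and 24.0% that fell. No list was tested as a whole. Morc1, a germline silencer of transposons, fell from 61.5 ± 4.74 to 39.8 ± 2.99 CPM (-0.63, edgeR adjusted p = 2.68e-08), and the HUSH subunit gene Pphln1 (-0.35) and Morc2a (-0.22) fell. Resf1, which acts with SETDB1 in silencing retroelements, rose from 209.9 ± 10.6 to 252.7 ± 8.49 CPM (0.27, edgeR adjusted p = 3.61e-05), and Mphosph8 (-0.12) and Morc3 (0.00) did not pass. In the NuRD deacetylase complex, which TRIM28 also recruits, 1 of 13 rose (Gatad2a, 0.33) and 2 fell (Mta1, -0.33, and Hdac2, -0.16), while Chd4 (-0.03) and Rbbp4 (0.09) did not pass (median 0.08). Of 14 tested relatives of TRIM28 and KRAB zinc finger genes, Zfp57 and Zfp809 included, 4 rose and 3 fell (median 0.16). Zfp459 fell from 44.2 ± 0.864 to 26.2 ± 3.72 CPM (-0.76, edgeR adjusted p = 2.08e-08) with Zfp819 (-0.71), and Zkscan1 (0.74) and Trim33 (0.29), a relative of TRIM28, rose, while Zfp445, a second zinc finger that protects imprints, did not pass (0.08).

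**Figure D4:**
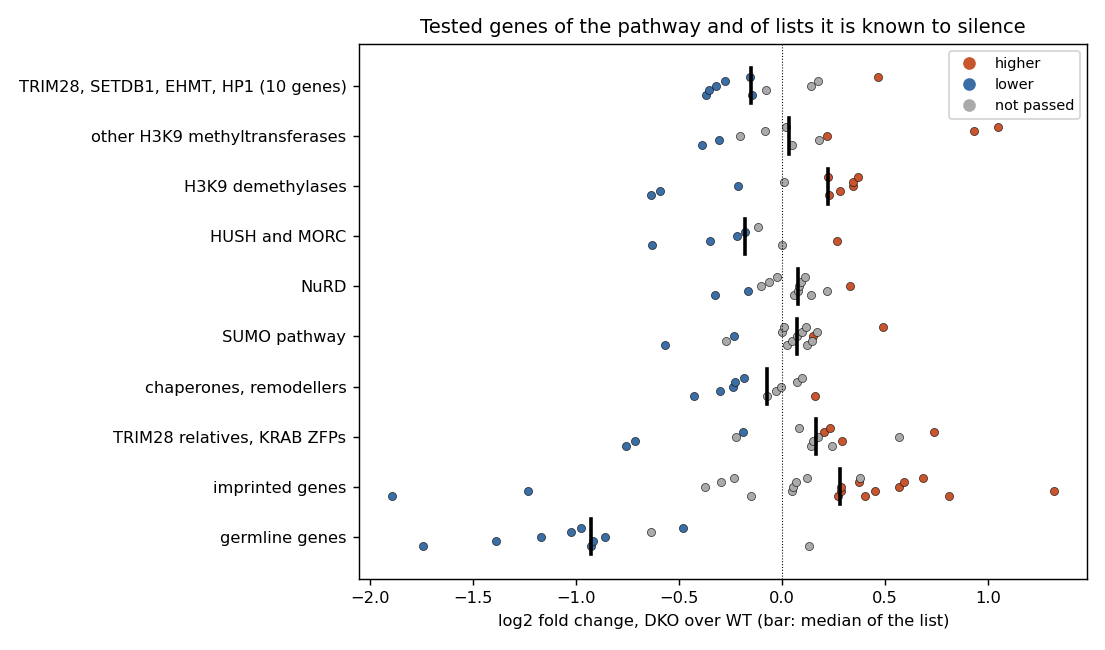
Log2 fold change, DKO over WT (horizontal axis), of every tested gene in the 10 genes and in 9 lists of related genes and of genes known to be kept silent or imprinted. Points are genes, coloured by whether they were higher or lower at an edgeR adjusted p under 0.05, and vertical bars are list medians. The 10 genes have a median of -0.15, the imprinted genes 0.28 and the germline genes -0.92.

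Imprinted genes at loci that ZFP57 and TRIM28 protect moved in both directions. Of 22 tested 11 rose and 2 fell, with a median log2 fold change of 0.28. Of all genes tested, 23.9% rose and 24.0% fell, and the list was not tested as a whole. Plagl1 rose from 84.9 ± 8.25 to 149 ± 13.5 CPM (0.81, edgeR adjusted p = 1.46e-11), and Gnas (0.57) and Impact (0.45) rose. Mest fell from 103 ± 2.71 to 27.6 ± 3.20 CPM (-1.89, edgeR adjusted p = 1.06e-20), and Dlk1 (-1.23), named here because it was the only other fall, fell from 6.52 ± 1.02 to 2.77 ± 0.402 CPM. Mcts2 (-0.15) did not pass. Without DKO 3 the number lower was 4 in place of 2. Allele of origin cannot be read from gene counts.

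Germline genes, several of which this machinery is known to keep low in ES cells, had no rise and mostly fell. Of 11 tested germline genes 0 rose and 9 fell, with a median of -0.92, and the list summed to 169.7 ± 15.5 CPM in WT and 89.3 ± 4.02 in DKO. The shares over all genes tested were 23.9% that rose and 24.0% that fell. Stag3, a meiotic cohesin gene, fell from 37.8 ± 5.01 to 19.97 ± 3.11 CPM (-0.91, edgeR adjusted p = 1.02e-08). Rpl10l (-1.17), Stk31 (-1.03) and Tuba3a (-0.92) fell too. Rpl10l had the highest CPM of the list, 69.0 in WT and 30.8 in DKO, so it weighs most in the sum. Whether its reads also match other genes was not tested. Falls of germline genes were known in these data before this list was drawn up. No gene of 2-cell-like cells, which express MERVL retroviruses and genes driven from them, had enough reads to be tested. The 24 genes of that list in the table, 6 of them at 0 in every library, summed to 4.73 to 7.33 CPM in the WT libraries and 1.88 to 2.98 in the DKO libraries, on 159 and 73 counts, and many are close copies whose reads are uncertain.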

How the data were processed

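Messenger RNA was measured in 4 WT and 5 DKO libraries of V6.5 ES cells. Per the labels' protocols, Trizol RNA entered a forward QuantSeq 3' kit. The authors deposited raw exon counts, whole numbers for each Ensembl gene. The submitters' processing notes name mm10 (GRCm38), cutadapt, STAR, featureCounts and DESeq2, without versions or roles. Of 52550 gene rows, 52403 matched GENCODE M21 by identifier, the source of symbols and positions, and the other 147 had no symbol.

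Genes were kept with filterByExpr, scaled by TMM and tested over all 9 libraries with edgeR 4.0.16 in R 4.3.3 (robust quasi-likelihood, genotype as the only term, Benjamini-Hochberg over 11893 genes, threshold 0.05). The SE is the fold change over the root of F. CPM are on TMM-scaled library sizes. A floor of 3 counts is 0.423 to 0.497 CPM, which covers counting error only. Shares were compared by exact permutation over 126 divisions. Neighbours are the 20 tested genes on each side. Within-group library pairs had a chi-square per degree of freedom of 2.22 to 4.98, so none looked like 1 library counted in duplicate. The edgeR step was tested on simulated data.

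The 10 genes and all lists were chosen with earlier results of these data known. The 10 genes are all named, and of each other list up to 4 called genes, taken by adjusted p, and up to 2 uncalled genes, the most abundant that reach 50 CPM in a group. Dlk1 was named after its value was seen. Some genes that this rule names are not reported here. Alternatives were other scaling, filters, DESeq2 1.42.0, limma-voom 3.58.1, each library left out and a replicate block. Removal of Gm42418, the row with the most counts, was added after the data were seen.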

Additional observations from a re-analysis of the deposited data

Results flagged for a closer look

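Among the 28 groups of values checked (each of the 10 genes' CPM and the 4 shares, in WT and in DKO), 3 held a library far from the others, where chance flags about 1 in 20. Trim28 in WT 3 stood at 1040.2 CPM, against 1121 to 1132 in the other WT libraries. Zfp57 in WT 3 was 9.84 CPM, against 13.8 to 14.2. Setdb1 in DKO 3 was 51.2 CPM, against 60.1 to 62.4 in the other DKO libraries. Without WT 3 the log2 fold change of Trim28 was -0.18 and that of Zfp57 0.03, and without DKO 3 that of Setdb1 was -0.32.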

How the results depend on the processing

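Of 18 alternative fits, that of replicates 1 to 4 with no block uses the same libraries as that without DKO 5. The tallies below therefore count 1 fit in duplicate. All 10 genes kept the sign of their log2 fold change in each of the 18. Of 180 such values 176 stayed on their side of the threshold, among them every one under another scaling, filter, DESeq2 or limma-voom. The other 4 came from leaving out 1 library: Ehmt1 ranged from -0.19 to -0.12 and Zfp809 from 0.13 to 0.23. With 1 library left out the number of the 10 genes that rose was 1 to 2 and the number that fell 5 to 6. Differences in share ranged from -1.63 to -1.05 percentage points for Cbx1 and from 2.94 to 4.51 for Cbx5, with fewer libraries to permute. Over all genes, 2468 to 2918 rose and 2475 to 3157 fell. Of 20 medians of neighbours taken with 10 or 40 genes on each side, 8 moved by more than their spread over the DKO libraries. With 10 and with 40 these were -0.16 and -0.07 near Setdb1, 0.24 and 0.47 near Atf7ip and 0.10 and 0.11 near Trim28, and with 40 alone -0.13 near Cbx1 and 0.12 near Ehmt1. The sign turned near Zfp57 with 40 (-0.0045) and near Zfp809 with both (-0.0069). Of 396 counts in the other lists 9 moved by over 1.5 times: SUMO genes that rose were 1 to 4 in place of 2, germline falls 5 with the filter of 5 CPM in 4 libraries, which tests fewer genes, imprinted falls 4 without DKO 3, and fibroblast falls 2 with no filter and with DESeq2.

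The replicate numbers are not said to mark a shared batch, so they were not taken as pairs in the main fit. Same-numbered WT and DKO libraries correlated in their deviations by 0.01 to 0.07, and the other pairs by -0.06 to 0.05. For each of DKO 1 to 4 the same-numbered WT library had the highest correlation. Whether the numbers mark a batch was not tested. With the replicate block on replicates 1 to 4 of both groups, 2699 genes rose and 2798 fell, against 2602 and 2661 with the same 8 libraries and no block, and 6 of the 10 genes fell and 1 rose in both. Depth limits Zfp57 most, at 351 counts in WT and 449 in DKO.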

Other observations

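Over all genes tested 24.0% fell and 23.9% rose, and neither list below was tested as a whole. Of 11 tested chaperone and remodeller genes of heterochromatin, 5 fell and 1 rose, with a median log2 fold change of -0.07. Hells, a remodeller needed for DNA methylation, fell from 934 ± 57.3 to 758 ± 45.4 CPM (-0.30, edgeR adjusted p = 3.17e-06). The histone chaperones Nasp (-0.24) and Asf1b (-0.43) fell, Daxx (0.16), which deposits H3.3 with ATRX, rose, and H3f3b (-0.07) and Atrx (0.00) did not pass. Of 15 tested SUMO pathway genes 2 rose and 2 fell, with a median of 0.07. The SUMO protease gene Senp2 fell from 57.3 ± 4.46 to 38.7 ± 2.68 CPM (-0.57, edgeR adjusted p = 2.57e-07), Pias2 (0.15) rose, and Sae1 (0.10) and Sumo3 (0.07) did not pass.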
